A study of Mus musculus with 2 samples.

Results

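Arid1b peaks were examined at 10 genes of the actomyosin cytoskeleton and the nuclear lamina, namely Myh9, Actb, Tpm1, Tpm2, Tpm4, Cald1, Actn1, Lmna, Cnn2 and Tln1, out of 21896 protein-coding genes placed on chromosomes. The genes were listed by name and chosen by the number and position of their Arid1b peaks in these same data, and their peaks are all deposited peaks that overlap the gene or the 10 kb to either side. This gave 58 distinct peaks of the 8318 in the list. Arid1b, an ARID subunit of BAF chromatin remodelling complexes and a paralogue of Arid1a, was profiled by chromatin immunoprecipitation with sequencing (ChIP-seq) in primary dental mesenchyme cells. The 2 libraries were an Arid1b ChIP and an input made with no antibody. Both came from cultured cells of wild-type C57BL/6 mice, grown in 10% serum from the apical region of first mandibular molars taken at postnatal day 3.5 to 7.5. Arid1a and a conditional Arid1a mouse appear in the series title and design text, but the samples are labelled with an Arid1b antibody and a wild-type source, and the sample labels are followed here. Because each group is 1 library, no replicate check exists, and every value describes these libraries.

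Nonmuscle myosin II slides actin filaments to generate contractile force in fibroblast-like cells. Tropomyosins, caldesmon and calponins bind along the filaments, alpha-actinin crosslinks them, and talin couples them to integrins at focal adhesions. Lamins form the meshwork under the inner nuclear membrane, which is joined to the cytoskeleton through the LINC complex. Many actin cytoskeleton genes are known targets of serum response factor and its actin-regulated cofactors, and cells in serum-containing culture are known to build stress fibres.

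Each of the 10 genes had at least 1 peak, and 9 of the 10 carried peaks in their interior as well as at an end. A peak reaching within 1 kb of an annotated end, called a boundary peak, was present in all 10, against 22.2% of all protein-coding genes. A peak overlapping the gene or its 10 kb flanks was present in all 10, against 31.7%. Among genes in the length range of the 10, those shares were 25.6% and 36%. A summit inside the gene and more than 1 kb from both ends, called interior here, was present in 9 of 10 genes, against 6.97% of all protein-coding genes and 7.75% of those in the same length range. At least 2 interior summits were present in the same 9 genes, against 2.2% of all, and at least 3 in 6 of 10, against 0.877% of all and 0.9% of those in the length range. The genes were chosen with these peaks known, so the shares describe the selection and no test was made. The median length was 27.9 kb for the 10 genes and 17.1 kb for all protein-coding genes.

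Of the 58 peaks, 41 had interior summits, 11 had summits within 1 kb of an end and 6 had summits outside the gene beyond 1 kb. Of the 41, 4 also reached within 1 kb of an end with their edge, 1 each at Tpm1, Cald1, Actn1 and Tln1, and are counted both ways. At the 1 kb limit, the summit of a Tln1 peak at 1094 bp from the end counted as interior and that of a Cnn2 peak at 926 bp did not. At the 10 kb limit, the outermost peak included had its summit 7450 bp below Tln1, and the closest peak left out lay 20943 bp from Actb. Interior summits amounted to 0.0858 per kb over the 477.8 kb of the 10 genes, with a median over genes of 0.125 per kb. Over all protein-coding genes the median was 0, and among those with any interior summit it was 0.0291 per kb.

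**Figure D1:**
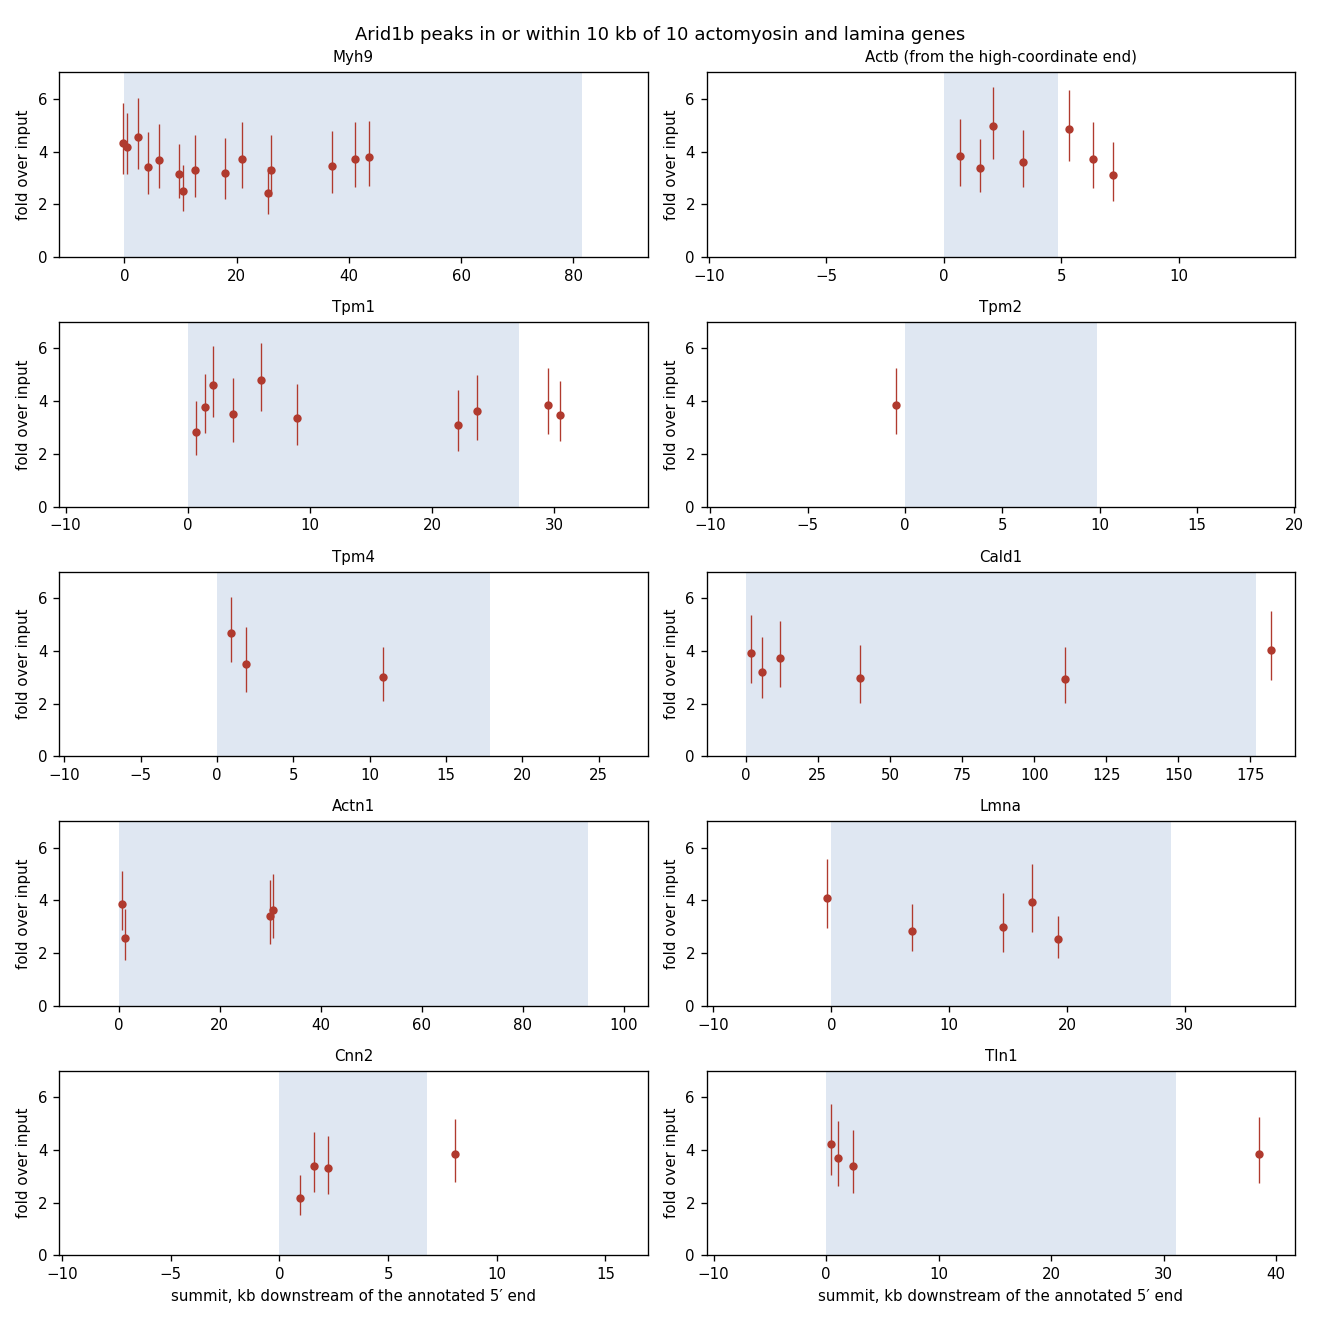
Summit positions (kb downstream of the annotated 5′ end; for Actb, from its high-coordinate end) and the authors' fold over input for the peaks of each gene, with exact Poisson 95% intervals of the ChIP count; shading is the gene. Myh9 holds 13 interior summits, none farther than 43617 bp from its 5′ end, and Tpm2 holds none.

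The peaks had folds a little below those of the whole list and lacked its highest values. The authors' fold enrichment over input at the summit had a median of 3.56 over the 58 peaks (quartiles 3.20 and 3.84, range 2.20 to 4.95), against 3.72 over all 8318 peaks (quartiles 3.30 and 4.32). None of the 58 reached a fold of 5, which 10.2% of all peaks did. The ChIP pileup at the summit, recovered from the fold and p-value, ranged from 28 to 58 fragments with a median of 36, and the level expected from the input ranged from 8.68 to 15.2. In every one of the 58 peaks the ChIP pileup was above the expected level, as the peak caller requires. For 52 of the 58 the exact Poisson 95% interval of the fold spanned the median of the whole list, and the same held for 85.5% of all peaks. Only counting error enters these intervals, and total read numbers were not used here.

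The peaks were of ordinary width in the middle of their range. The median width was 317.5 bp for the 58 peaks and 307 bp for all peaks, and 6 of the 58 (10.3%) were at least 1 kb wide, against 4.48% of all. Of the 6, 2 each lay at Myh9 and Actb and 1 each at Tpm4 and Cald1.

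**Figure D2:**
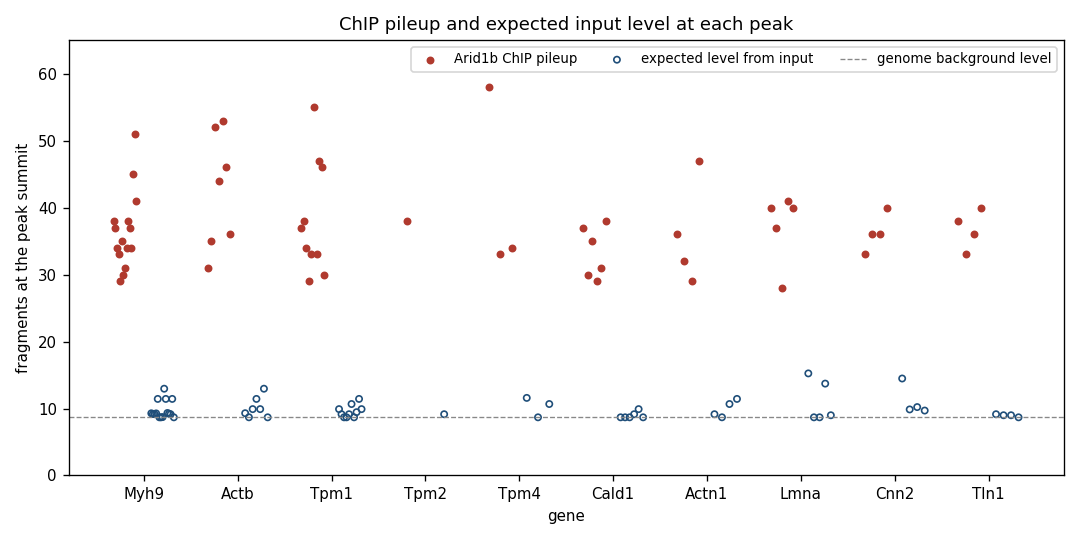
Fragments at the summit of each peak in the ChIP (filled) and the level expected from the input (open), by gene; the dashed line is the genome background of 8.68. ChIP pileups lie between 28 and 58 and expected levels between 8.68 and 15.2, with no overlap.

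Local input was often raised at these genes. The expected level exceeded the genome background of 8.68 at 41 of the 58 peaks, and 17 (29.3%) were at the background, against 48.9% of all peaks. Among the 41 interior peaks the expected level was raised at 29 (70.7%), against 52.9% of the 2405 peaks with an interior summit in any protein-coding gene. Counting only peaks at background input left 17 peaks, 12 interior summits and boundary peaks at 4 of the 10 genes. The share of all protein-coding genes under that limit was not computed. The part of local input in the number of peaks was not tested.

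Myh9 encodes the heavy chain of nonmuscle myosin IIA, the main motor of stress fibres. It lies at chr15:77760585-77842175 (mm10) on the minus strand and had 15 peaks, 13 of them interior. Only Col1a1, with 14 interior summits in 16.8 kb, had more interior summits among protein-coding genes. Per kb of gene, Myh9 had 0.159 interior summits (exact Poisson 95% interval 0.0848 to 0.272), rank 211 of all protein-coding genes and 51 of the 13959 that are at least 10 kb long.

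The Myh9 peaks filled the 5′ part of the gene. The interior summits spanned 41192 bp with a median spacing of 2691.5 bp, and 11 of the 13 were nearer the 5′ end than the 3′ end. The farthest lay 43617 bp from the 5′ end in a gene of 81.6 kb, and the 3′ end had no peak. The strongest interior peak, chr15:77839264-77840374, had 45 fragments in the ChIP against 9.15 expected from the input, a fold of 4.53 (3.33 to 6.03). Its weakest, chr15:77816491-77816806, had 29 against 11.4, a fold of 2.41 (1.64 to 3.43). These 2 intervals overlap, as do those of all 15 peaks with the strongest.

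At the 5′ end of Myh9 a peak lay on each side of the annotated start at position 77842175. The downstream one, chr15:77840610-77841999, was the widest of the gene at 1390 bp and had 51 fragments in the ChIP against 11.4 expected from the input, a fold of 4.18 (3.14 to 5.47). The upstream one, chr15:77842413-77842626, had 41 against 8.68, a fold of 4.34 (3.14 to 5.85). Among genes whose length was within a factor of 2 of that of Myh9, those nearest to it in the numbers of interior and end peaks were Gata4 (8 interior summits, no end peak), Tnrc18 (7, with 1 end peak) and Zfp608 (8, no end peak). Each differed from Myh9 by a sum of 7 peaks, so no gene was close to it by this measure.

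**Figure D3:**
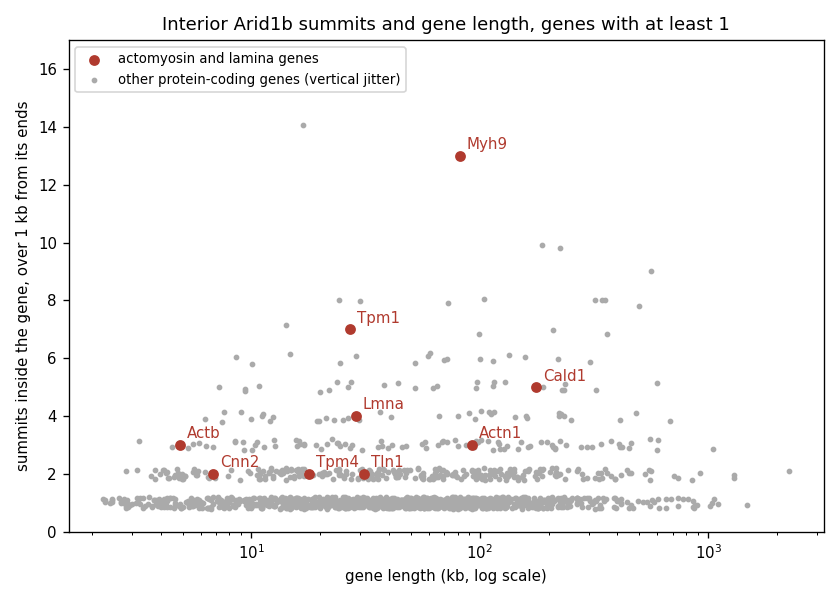
Interior summits per gene against gene length (log scale) for the 1527 protein-coding genes with at least 1, with the actomyosin and lamina genes in red. Myh9 with 13 and Tpm1 with 7 stand high for their length, Actb has 3 in a 4.86 kb gene, and Cald1 has 5 in 177 kb; Tpm2 has 0 and is not drawn.

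Actb encodes beta-actin, a cytoplasmic actin of nonmuscle cells. It lies at chr5:142903115-142907976 and had 7 peaks in and around a gene of 4.86 kb, with 3 interior summits. Per kb this was 0.617 (0.127 to 1.80), rank 10 of all protein-coding genes and the highest of the 10 genes, although the wide interval reflects 3 summits. These summits lay within 1849 bp, in neighbouring peaks less than 500 bp apart. The density and rank thus depend on counting those peaks separately. It was the only one of the 10 with a peak at both ends, against 1.15% of all protein-coding genes.

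The highest folds of the 58 peaks were at Actb. The interior peak chr5:142904913-142906310 had 53 fragments in the ChIP against 9.91 expected from the input, a fold of 4.95 (3.73 to 6.45), rank 938 in the list. The peak at the low-coordinate end, chr5:142901927-142903408, had 52 against 9.91, a fold of 4.86 (3.65 to 6.34), and the one at the high-coordinate end, chr5:142906978-142907415, had 36 against 8.68, a fold of 3.82 (2.71 to 5.25). The intervals of the 3 overlap. A further 2 peaks lay below the low-coordinate end, with summits 1501 and 2335 bp from it and folds of 3.72 and 3.11.

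The tropomyosins differed from one another in peak number. Tpm1, at chr9:67022590-67049672 on the minus strand, had 10 peaks and 7 interior summits, or 0.258 per kb (0.104 to 0.533), rank 111 of all protein-coding genes. Its strongest peak, chr9:67043275-67044045, had 55 fragments in the ChIP against 10.7 expected from the input, a fold of 4.80 (3.64 to 6.22), and lay 5568 bp downstream of the annotated start. Of its interior summits 5 were in the part nearer the 5′ end, 2 lay 3430 and 4977 bp inside the 3′ end, and 2 more peaks lay 2432 and 3350 bp beyond that end. Whether the interior peaks lie at a start site of another Tpm1 transcript was not tested beyond the single annotated start used.

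Tpm4, at chr8:72135288-72153142 on the plus strand, had 3 peaks, led by chr8:72135352-72136666 just inside its start with 58 fragments in the ChIP, the most of the 58 peaks, against 11.6 expected from the input and a fold of 4.69 (3.58 to 6.04). Its 2 interior summits gave 0.112 per kb (0.0136 to 0.405). Tpm2, at chr4:43513726-43523583 on the minus strand, had a single peak, chr4:43523914-43524170, upstream of its start with 38 fragments against 9.15 and a fold of 3.84 (2.75 to 5.24). With 0 interior summits in 9.86 kb, its interval reached 0.374 per kb, which overlaps those of Tpm1 and Tpm4. The fourth family member, Tpm3, had no boundary peak and 1 peak, interior.

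Caldesmon and calponin-2 each had a peak near the start, with 5 and 2 interior summits in genes of unlike length. Cald1, which inhibits actomyosin and stabilises filaments, is the longest of the 10 at chr6:34598495-34775469 on the plus strand, and had 6 peaks. Its 5 interior summits in 177 kb gave 0.0283 per kb (0.00917 to 0.0659), the lowest of the 9 genes with any. The peak nearest its outer start, chr6:34599080-34600533, had 37 fragments in the ChIP against 8.68 expected from the input, a fold of 3.92 (2.79 to 5.37), with its summit 1758 bp downstream. Another, chr6:34708988-34709197, ended 247 bp before the inner annotated start of Cald1 and had a fold of 2.93 (2.02 to 4.13). The sixth peak, 5074 bp beyond the 3′ end with a fold of 4.03, also lay at a boundary of Agbl3.

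Cnn2, an actin-binding protein of smooth muscle and nonmuscle cells, lies at chr10:79988600-79995400 on the plus strand. It had 4 peaks and 2 interior summits in 6.80 kb, or 0.294 per kb (0.0356 to 1.06), second to Actb. The peak nearest its start, chr10:79989213-79989542, had 33 fragments in the ChIP against 14.5 expected from the input, a fold of 2.20 (1.53 to 3.06), the lowest of the 58. All 4 Cnn2 peaks had an expected level above the background. The peak beyond its 3′ end, with a fold of 3.83, lay at a boundary of Abca7.

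The crosslinker and adhesion genes each had their strongest own peak at the start. Actn1, encoding the nonmuscle alpha-actinin-1, lies at chr12:80167542-80260420 on the minus strand and had 4 peaks. The peak over its start, chr12:80259645-80260573, had 47 fragments in the ChIP against 11.4 expected from the input, a fold of 3.86 (2.86 to 5.11). The next, chr12:80258990-80259435, had 29 against 10.7, a fold of 2.57 (1.75 to 3.65). The other pair had summits 30027 and 30496 bp from the 5′ end, 469 bp apart, with folds of 3.41 and 3.65. Its 3 interior summits in 92.9 kb gave 0.0323 per kb (0.00666 to 0.0944).

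Tln1, encoding talin-1, which activates and anchors integrins, lies at chr4:43531513-43562583 on the minus strand, with Tpm2 as its neighbour. It had 3 peaks with summits within 2349 bp of its start, and the fourth, 7450 bp beyond its 3′ end, is the Tpm2 peak counted for both genes. The peak nearest the start, chr4:43561959-43562421, had 40 fragments in the ChIP against 8.68 expected from the input, a fold of 4.23 (3.05 to 5.73), and also lay within 1 kb of a boundary of Creb3. The following ones along the gene had folds of 3.70 and 3.40. The 2 interior summits gave 0.0644 per kb (0.00780 to 0.233).

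Lmna encodes the A-type lamins. It lies at chr3:88481148-88509932 on the minus strand and had 5 peaks, 4 of them interior, or 0.139 per kb (0.0379 to 0.356). Of its interior summits, 1 of 4 was nearer the 5′ end than the 3′ end, and their median position was 0.55 of the gene length from the 5′ end. The sequence table lists 2 starts inside the gene, at positions 88503352 and 88493312. A peak began 121 bp downstream of the start at 88503352, chr3:88502788-88503231, with 41 fragments in the ChIP against 13.7 expected from the input and a fold of 2.85 (2.07 to 3.85). Another began 311 bp downstream of the start at 88493312, chr3:88492593-88493001, with 37 against 8.68 and a fold of 3.92 (2.79 to 5.37).

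The strongest Lmna peak lay outside the gene. At chr3:88510186-88510430, its summit was 375 bp beyond the 5′ boundary of the annotated gene and 6955 bp upstream of the nearer listed start, with 40 fragments in the ChIP against 8.99 expected from the input, a fold of 4.10 (2.96 to 5.55). The deepest, chr3:88490424-88490727, had the highest expected level of the 58 peaks at 15.2, 40 fragments in the ChIP and a fold of 2.52 (1.82 to 3.42).

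Annotated starts mostly lay beside a peak and not inside one, as did those of other genes with a peak nearby. Starts with their strand came from a RefSeq promoter table for GRCm38.p6, the assembly that mm10 names, which held 11 starts of 9 of the genes. All 11 had a peak within 1 kb, against 23.3% of the 21262 starts of all protein-coding genes in the table. Only the start of Actn1 was inside a peak, 1 of 11. Of all starts with a peak within 1 kb 23.6% were, and 11 starts are too few to set apart from that share. Of the other 10 starts, 7 had a peak within 1 kb on the downstream side only, 2 on the upstream side only (Tpm2 and the inner start of Cald1) and 1, that of Myh9, on both sides. For all starts beside a peak the same shares were 66.9%, 20.7% and 12.5%, which lie near those of the 10 starts. The gap between start and nearest peak edge was smallest at Tpm4 (64 bp), Tpm1 (115 bp) and the outer start of Lmna (121 bp) among those not covered, and largest at Cnn2 (613 bp).

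**Figure D4:**
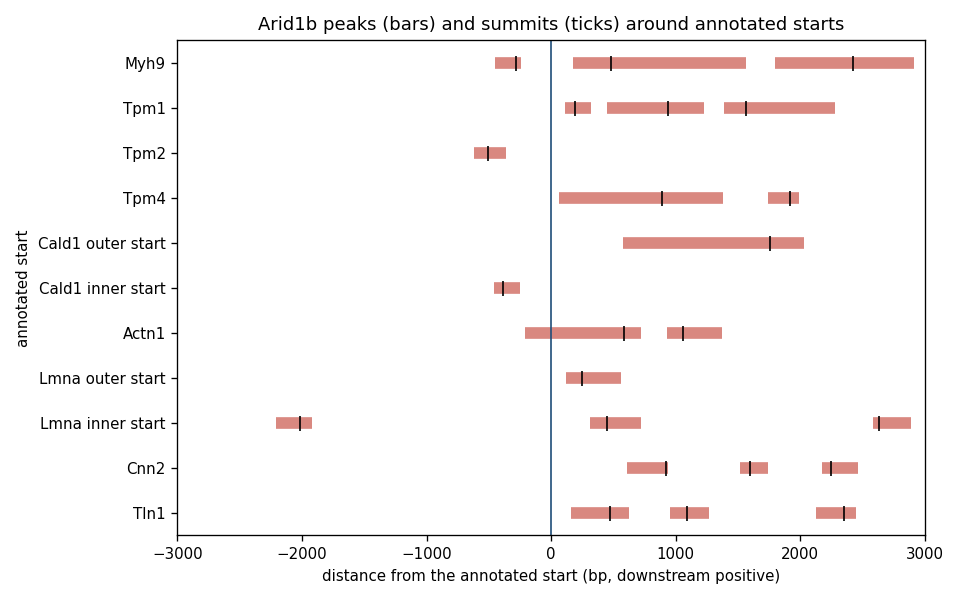
Peaks (bars) and summits (ticks) within 3000 bp of the 11 annotated starts of 9 genes, with the direction of transcription to the right (bp, downstream positive). The bar at Actn1 alone crosses the start, Myh9 has a bar on each side, and Tpm2 and the inner start of Cald1 have theirs upstream.

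The bases upstream of 3 starts are shown because they stand for 3 of the situations seen. A peak on the upstream side only, as at Tpm2 and the inner start of Cald1, is not among them. At Actn1 the start was inside a peak, at Myh9 it lay between a pair of peaks, and at Cnn2 the nearest peak was 613 bp downstream. Actn1 was taken because a peak covered its start, and the others were chosen after their values were seen. The sequences are from RefSeq (GRCm38.p6), 5′ to 3′ in the direction of the gene, and hold only bases outside annotated protein-coding genes. Capitals mark matches, on either strand, to the GC box (GGGCGG), the CCAAT box (CCAAT), the TATA box (TATAAA) or the CArG box that serum response factor binds.
Actn1, chr12:80260421-80260613, minus strand, 250 to 58 bases before the start: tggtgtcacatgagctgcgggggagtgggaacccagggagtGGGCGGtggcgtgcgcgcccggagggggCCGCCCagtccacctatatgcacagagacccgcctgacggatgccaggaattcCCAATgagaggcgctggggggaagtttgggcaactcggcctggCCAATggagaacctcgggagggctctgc
Myh9, chr15:77842176-77842425, minus strand, the 250 bases before the start: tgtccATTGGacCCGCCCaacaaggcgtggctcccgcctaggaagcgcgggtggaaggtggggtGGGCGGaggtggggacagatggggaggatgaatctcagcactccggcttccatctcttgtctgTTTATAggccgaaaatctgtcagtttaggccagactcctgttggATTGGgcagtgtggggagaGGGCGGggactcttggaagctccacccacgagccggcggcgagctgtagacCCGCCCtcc
Cnn2, chr10:79988350-79988599, plus strand, the 250 bases before the start: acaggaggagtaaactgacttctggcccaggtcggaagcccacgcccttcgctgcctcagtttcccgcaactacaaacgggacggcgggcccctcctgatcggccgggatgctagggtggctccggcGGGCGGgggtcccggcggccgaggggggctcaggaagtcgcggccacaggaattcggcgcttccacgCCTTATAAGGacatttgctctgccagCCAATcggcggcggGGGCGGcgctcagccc

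The peak covered the last 153 of the 193 Actn1 bases, including both GC box and both CCAAT matches marked there. Peaks covered the first 13 of the Myh9 bases and none of those of Cnn2. Their GC content was 66.8% at Actn1, 62.4% at Myh9 and 68.4% at Cnn2. The CArG match of Cnn2 began 56 bases before the start and was the only one in the 11 windows, which run from 250 bases before to 50 after a start, while 1.52% of the windows of all 21262 starts held one. A TEAD match (GGAATG) was present at Tpm1 and the outer start of Cald1, against 13.6% of all windows, and an AP-1 match (TGANTCA) at the inner start of Cald1 and the outer start of Lmna, against 6.99%. The GC box was in 8 of the 11 windows, against 46.2% of all, the CCAAT box in 6, against 38.2%, and the TATA box in 2, at Myh9 and the inner start of Cald1, against 12.6%. No matches overlapped one another in the 11 windows. A match is a run of letters and does not show binding.

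Interior summits lay toward the 5′ end of these genes, at a share near that of other genes. Of the 38 interior summits in the 8 genes with both a strand and an interior summit, 29 (76.3%, exact binomial 95% interval 59.8 to 88.6) were nearer the 5′ end than the 3′ end, against 75.8% of 1918 over all protein-coding genes with a strand. Summits of 1 gene are not independent of each other. By gene, all interior summits were on that side at Actn1, Cnn2 and Tln1, 4 of 5 at Cald1, 5 of 7 at Tpm1, 1 of 2 at Tpm4 and 1 of 4 at Lmna.

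The genes with the densest peaks did not all have the highest folds. Actb, Cnn2 and Tpm1 had the most interior summits per kb, and their highest folds were 4.95, 3.83 and 4.80. The Cnn2 value is from the peak beyond its 3′ end, at a boundary of Abca7, and its highest interior fold was 3.41. Among genes of at least 10 kb the most interior summits per kb were in Col1a1 (0.832), Ppp1r18 (0.600), Tbx3 (0.493), Brd2 (0.463) and Nr2f2 (0.405). On that scale Tpm1 ranked 16, Myh9 51, Lmna 67, Tpm4 94, Tln1 225, Actn1 490 and Cald1 550 of 13959 genes, of which 1298 had any interior summit.

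Peaks were also listed at many of the wider actomyosin, adhesion and lamina genes. Of 66 genes in 10 lists other than the 10 described above, 39 (59.1%) had a boundary peak, against 22.2% of all protein-coding genes. The sarcomere genes of striated muscle, described below, are not among the 66. A peak in the gene or its 10 kb flanks was present at 48 (72.7%), against 31.7% of all, and an interior summit at 16 (24.2%), against 6.97%. At least 3 interior summits were present in 0 of the 66, against 0.877% of all. Genes of these lists with that many are all among the 10 chosen, and 66 genes are too few to set apart from so low a share. A boundary peak can also belong to a neighbouring gene, and the lists are described without a test.

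**Figure D5:**
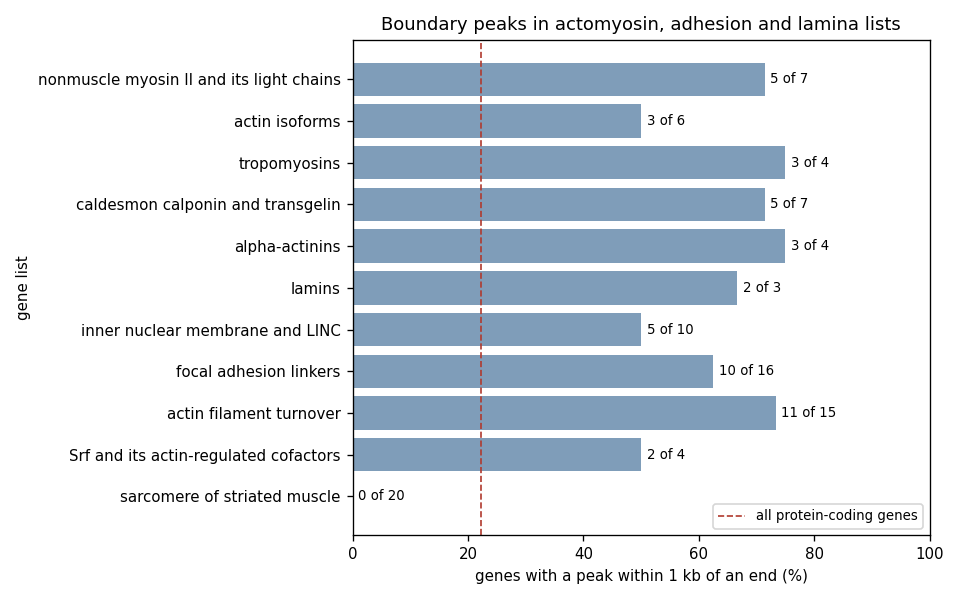
Share of genes with a boundary peak (within 1 kb of an end), by list, with the counts beside the bars (the 10 genes included); the dashed line is the 22.2% of all protein-coding genes. The lists lie between 50% and 75%, except the sarcomere genes of striated muscle with 0 of 20. The 10 genes were chosen for their peaks, and the tropomyosins with a boundary peak are all among them.

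Among motor and filament genes, the regulatory light chain genes Myl12a (6.82) and Myl12b (6.11) and the essential light chain gene Myl6 (5.05) had boundary peaks of higher fold than any of the 58 peaks, and the nonmuscle myosin IIB gene Myh10 had one of 4.23. List counts here and below include the genes chosen for their peaks, and counts without them are given beside. Of all protein-coding genes, 22.2% had a boundary peak. Of the nonmuscle myosin list, 5 of 7 did (4 of 6 without Myh9), but Myh9 was the only one with interior summits. Actg1, the other cytoplasmic actin gene, had 4 boundary peaks with a highest fold of 4.90, and the smooth muscle actin gene Acta2 had 1 of 3.67. In all, 3 of 6 actin genes had one (2 of 5 without Actb). Tagln2 (3.76), Cnn3 (3.70) and Tagln (3.51) had one in the caldesmon, calponin and transgelin list (5 of 7, 3 of 5 without Cald1 and Cnn2). Among the alpha-actinins, Actn4 (4.63) and Actn3 (3.10) had one (3 of 4, 2 of 3 without Actn1).

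At the nuclear envelope, the B-type lamin gene Lmnb1 had a boundary peak of 4.54 and no interior summit. Of the lamin genes 2 of 3 had a boundary peak (1 of 2 without Lmna), against 22.2% of all protein-coding genes. Of 10 genes of the inner nuclear membrane and the LINC complex 5 had one, at the chromatin-tethering factor gene Banf1 (6.82), the lamin B receptor gene Lbr (4.66), the LINC gene Sun2 (4.58), the inner membrane gene Lemd3 (3.61) and the LINC gene Sun1 (2.80). At focal adhesions 10 of 16 had one (9 of 15 without Tln1), with Ilk (5.10), Zyx (4.75), Vcl (4.34) and the integrin gene Itgb1 (4.10) highest besides Tln1 (4.23).

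Genes of actin filament turnover also had many boundary peaks. There 11 of 15 had one, against 22.2% of all protein-coding genes. The highest were at the cofilin gene Cfl2 (5.06) and the Arp2/3 complex genes Actr2 (4.85), Actr3 (4.73) and Arpc2 (4.65). Srf (2.58) and its cofactor gene Mrtfb (4.18) had one among 4, and Srf had 2 interior summits.

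The listed sarcomere genes of striated muscle were almost free of peaks. Of these 20, 0 had a boundary peak, against 22.2% of all protein-coding genes, and 1 had a peak within 10 kb, against 31.7%. The list does not hold every such gene. Outside it, Myom1 had 1 interior summit and 1 peak at its low-coordinate end, and Actn3 had the boundary peak given above. As a check on the labelled cell type, 7 of 8 dental mesenchyme markers (Msx1, Msx2, Pax9, Lhx8, Dlx1, Dlx2 and Barx1) had a boundary peak, against 22.2% of all protein-coding genes. Endothelium, blood and skeletal muscle had 0 of 4 each, and sets of 4 genes are too small to set apart from that share. Of the blood genes, 1 had a peak within 10 kb. A peak at a gene does not measure its expression, so the identity of the cells was not tested by these counts.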

How the data were processed

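ChIP-seq of Arid1b was set against input, 1 library each, not pooled. The submitters' processing notes name FastQC 0.11.8, Bowtie2 2.2.5, Picard, MACS2 2.1.1 and mm10, without roles; for parameters and duplicate handling nothing is given in the sources used here. The deposited narrow peak list gives, for each peak, the authors' fold enrichment (a linear ratio of ChIP over input), −log10 p (lowest 5.02), −log10 q (lowest 2.27), a score that was not used, and the summit offset. Peak values are the authors' and only describe peaks.

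The ChIP pileup and expected input level were recovered by solving the fold (the pileup and the expected level, each raised by 1, as a ratio) and the Poisson p together, in whole pileups, with a largest error of 0.000162 in −log10 p. The median pileup was 38 over all peaks (quartiles 34 and 44). Background input means within 0.01 of 8.68. Fold and density intervals are exact Poisson, 95%. The density intervals treat summits as independent, which neighbouring summits of 1 gene are not, and do not test differences between genes.

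Gene bounds came from RefSeq, GRCm38.p6, and strand and starts from a RefSeq promoter table (9 of 10 genes; Actb had no entry). Coordinates are 1-based. Boundary peaks have any part within 1 kb of a gene's outer end, and interior summits are counted per kb of gene. The scripts were tested on simulated data. Python 3.11.15, pandas 2.3.3 and scipy 1.17.1 were used. The members and lists were chosen with earlier results of these data known. All 10 genes are named; of other lists, up to 4 genes by fold of their boundary peak (Sun1 was added after its value was seen). The genes of at least 10 kb with the most interior summits per kb and those most like the gene with the most interior summits are also named. Lists are described by counts, with no test. Alternatives covered stricter thresholds, other windows and flanks, summits alone, merged intervals and background input. A few results planned for one gene list and one marker set are not reported here.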

Additional observations from a re-analysis of the deposited data

How the results depend on the processing

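Of 39 values recomputed for 6 results, 27 stayed within a factor of 1.5 of the reported value (for the median fold, within the counting interval of a peak of that fold). These alternatives were applied to the 10 genes alone. Shares of all protein-coding genes were not computed at these settings, so the counts cannot be set against other genes. Within that factor, 7 genes had a boundary peak with a 500 bp window or −log10 q of at least 10, merged intervals gave 42 peaks, and −log10 q of at least 5 gave a median density of 0.0907 per kb. With a fold of at least 5, the genes with a boundary peak, the genes with a peak within 10 kb, the peaks, the interior summits and the median density all came to 0, since no peak of these genes reaches that fold. With −log10 q of at least 10 there were 12 peaks and 5 interior summits. With input at background there were 4 genes with a boundary peak, 17 peaks and 12 interior summits. With the interior beginning 5 kb from each end there were 24 interior summits and a median density of 0.0221 per kb. Leaving out summits within 1 kb of an annotated start, an alternative chosen after seeing the data, left 37 interior summits. No paired analysis was possible because each group is 1 library. Pileups of 28 to 58 fragments limit the comparison of heights between peaks.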
